A study of Mus musculus with 30 samples.

Results

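The 6 genes of the Reg family of regenerating proteins, Reg1, Reg2, Reg3a, Reg3b, Reg3d and Reg3g, were followed through the pancreas and kidney of mice from a study of induced reprogramming. They were taken by name from the 19685 rows of the pancreas table, and all 6 were also among the 19468 rows of the kidney table. Poly(A) RNA of 30 C57BL/6 mouse libraries was measured, 15 of each tissue, in groups of 5. In the pancreas the groups were labelled p53 KO, i4F Ink4a/Arf KO and i4F, and in the kidney i4F p53 KO, i4F Ink4a/Arf KO and i4F. All groups, controls included, drank 0.2 mg/ml doxycycline for 7 days, and no group without doxycycline was analysed here. In i4F mice doxycycline switches on a cassette of Oct4, Sox2, Klf4 and Myc. The mice labelled Ink4a/Arf KO lack the locus that encodes the p16Ink4a and p19Arf tumour suppressors, and a p53 KO label means loss of Trp53. The pancreas labels of the p53 KO group do not name i4F. Age, sex and the cell types that express the cassette were not given in the sources used here. By Xist, the transcript of the silenced X, and the Y-linked gene Ddx3y, sex was not balanced. Xist was at or below 0.856 FPKM in all 5 pancreas libraries labelled p53 KO, where Ddx3y was 2.87 FPKM or more, against 4.51 FPKM in i4F Ink4a/Arf KO replicate 1 and 5.44, 7.16 and 9.15 FPKM in i4F replicates 3, 4 and 5, all with Ddx3y near 0. The design text gives 5 mice of each genotype, so the spread over 5 libraries is taken as a spread over mice.

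Trp53 was not lower in the pancreas libraries labelled p53 KO, against what the label would lead one to look for. All 5 lay above every i4F Ink4a/Arf KO library, and 4 of 5 lay above every i4F library. Its pancreas range was 6.65 to 24.8 FPKM for the label p53 KO, against 1.97 to 4.16 FPKM for i4F Ink4a/Arf KO and 1.64 to 6.99 FPKM for i4F. In the kidney the i4F p53 KO libraries were instead the lowest, at 4.90 to 10.1 FPKM. The kidney range was 13.9 to 17.9 FPKM for i4F Ink4a/Arf KO and 14.8 to 20.3 FPKM in i4F. FPKM per gene cannot show which exons were read, so every direction below rests on the pancreas libraries labelled p53 KO as they are labelled. Cdkn2a, the Ink4a/Arf locus, ranged from 0.496 to 14.3 FPKM in the pancreas libraries with the p53 KO label, and was at or below 0.112 FPKM in i4F Ink4a/Arf KO and 0.318 FPKM in i4F in both tissues, too low in i4F to check the Ink4a/Arf KO label. The pancreas libraries labelled p53 KO stood apart, with 10507 to 13194 genes at 1 FPKM or more, against 6867 to 7892 for i4F Ink4a/Arf KO and 6596 to 9852 for i4F. The reads behind a single gene were not used here, so no counting interval is given. Kidney tubule genes such as Umod and Slc34a1 were present in every kidney library, where the 10 listed genes summed to 7244 FPKM or more, against 55.4 FPKM or less in every pancreas library. Acinar secretory genes took 1.08% to 49.4% of all pancreas FPKM under the label p53 KO, against 62.3% to 74.4% in those of the other genotypes.

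Reg proteins are small secreted proteins built on a C-type lectin fold. In the healthy pancreas Reg1 and Reg2 are products of acinar cells, the cells that make digestive enzymes, whereas Reg3b, also known as pancreatitis-associated protein, is known for its sharp induction in acute pancreatitis. Reg3b and Reg3g are also made by the intestinal epithelium, where Reg3g kills Gram-positive bacteria, and cytokines of the IL-6 family and IL-22 are known to induce them through STAT3. The fourth branch of the family, Reg4, was at or below 0.221 FPKM in every pancreas library and is not treated further.

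The 6 genes lie in 1 block of 97.99 kb on mouse chromosome 6 (GRCm38.p6), with no other protein-coding gene inside it. The order is Reg3b (78370885 to 78373466, plus strand), Reg3d (78375874 to 78378865, minus), Reg3a (78380709 to 78383839, plus), Reg2 (78405155 to 78408099, plus), Reg1 (78425983 to 78428668, plus) and Reg3g (78466269 to 78468874, minus). Reg3b, Reg3d and Reg3a sit within 2.407 and 1.843 kb of each other, and the widest gap, 37.6 kb, lies between Reg1 and Reg3g. The closest protein-coding gene outside the block, Ctnna2, a catenin of neurons, was at or below 0.031 FPKM in every pancreas library. Of the other 3 flanking genes, Lrrtm1 and Lrrtm4 were below 0.03 FPKM, and Gm20594 ranged from 7.89 to 30.3 FPKM. The transcripts of the family are 57.3% to 79.4% identical over their aligned bases. Reg1 and Reg2 are the closest pair, and Reg3b and Reg3g share the longest identical run, 35 bases. How the authors assigned reads that match more than 1 of these genes is not given in the sources used here, so some exchange of signal between members cannot be told apart from expression.

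The promoter windows of the 3 members called in the pancreas on the values as deposited, Reg1, Reg3b and Reg3g, are printed to show what the 250 bases before each start hold. They are RefSeq sequences of GRCm38.p6, read 5′ to 3′ on the strand of the gene. Capitals mark 4 motifs searched on both strands: CACCTG, an E box of the kind bound by acinar basic helix-loop-helix factors; TTTCCC, the partner box of RBPJ-type factors; TATAAA; and TTCNNNGAA, the core of STAT binding sites. The motifs were chosen after the windows had been seen.
Reg1, chr6:78425733-78425982, plus strand: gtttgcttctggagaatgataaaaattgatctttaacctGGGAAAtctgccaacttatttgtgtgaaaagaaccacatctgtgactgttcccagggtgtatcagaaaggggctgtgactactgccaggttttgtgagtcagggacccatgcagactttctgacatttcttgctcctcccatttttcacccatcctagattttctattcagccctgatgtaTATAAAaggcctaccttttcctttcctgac
Reg3b, chr6:78370635-78370884, plus strand: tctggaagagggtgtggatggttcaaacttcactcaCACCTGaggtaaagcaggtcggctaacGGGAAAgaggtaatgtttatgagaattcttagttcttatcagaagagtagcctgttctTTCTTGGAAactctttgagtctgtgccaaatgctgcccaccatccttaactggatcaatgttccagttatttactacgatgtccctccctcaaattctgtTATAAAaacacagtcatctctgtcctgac
Reg3g, chr6:78468875-78469124, minus strand: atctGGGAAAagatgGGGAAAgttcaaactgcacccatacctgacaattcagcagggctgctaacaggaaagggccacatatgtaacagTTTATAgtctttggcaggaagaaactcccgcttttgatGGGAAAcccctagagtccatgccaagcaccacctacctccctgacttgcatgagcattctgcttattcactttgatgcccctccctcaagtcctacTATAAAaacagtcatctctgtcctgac
Counting -1 as the base before the start, TATAAA began at -30 in Reg1 and Reg2, at -29 in Reg3b and at -27 in Reg3g. Reg3g held it also on the other strand, at -161 to -156, printed as TTTATA, and 12.4% of 32851 mouse promoter windows of the same length held it. CACCTG was found in Reg2, Reg3a, Reg3b and Reg3d, and in 17.2% of all windows. TTTCCC, or GGGAAA on the printed strand, was found in Reg1, Reg3b, Reg3d and Reg3g, 3 times in Reg3g, and in 21.9% of all windows. TTCNNNGAA was found in Reg3b, at -129 to -121, and in Reg3d, where it overlaps a TTTCCC, and in 7.02% of all windows. A match is a description of letters and not a binding site, and no binding was measured.

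Within the pancreas the family was among the highest of all transcripts in FPKM, a unit that divides reads by transcript length and library reads and so lets genes be compared. Reg1 measured 4598, 9372, 32035, 40929 and 1343 FPKM in replicates 1 to 5 of the libraries labelled p53 KO. Its values were 42838, 29517, 31844, 35032 and 30343 FPKM in i4F Ink4a/Arf KO, and 29400, 45682, 33602, 29983 and 29180 FPKM in i4F. Replicates 1, 2 and 5 of p53 KO lay below every library of the other genotypes and replicates 3 and 4 lay among them, whereas i4F Ink4a/Arf KO and i4F were tight, within 1.45-fold and 1.57-fold. Its rank among all genes of a library was 5 to 47 in the libraries labelled p53 KO, 4 to 8 for i4F Ink4a/Arf KO and 4 to 7 for i4F.

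Reg2, the close relative of Reg1, measured 6487, 16335, 51345, 65499 and 1201 FPKM in the libraries labelled p53 KO. Its values were 5320, 40043, 61054, 26489 and 11233 FPKM in i4F Ink4a/Arf KO, and 28329, 9910, 7987, 21810 and 27971 FPKM in i4F. The 3 groups overlapped throughout, and Reg2 spanned 54.5-fold within p53 KO, 11.5-fold within i4F Ink4a/Arf KO and 3.55-fold within i4F.

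Reg3b measured 9457, 15637, 54302, 61518 and 1969 FPKM in the libraries labelled p53 KO. Its values were 867, 20465, 39443, 7089 and 3382 FPKM in i4F Ink4a/Arf KO, and 2677, 658, 561, 1709 and 4108 FPKM in i4F. Of the p53 KO libraries 4 lay above every i4F library, and 3 of the i4F Ink4a/Arf KO libraries did so too. Both groups still overlapped i4F. No overlap at all was found for 74.3% of the 10781 tested genes in p53 KO against i4F. For i4F Ink4a/Arf KO against i4F that share was 0.223%. Reg3b was the highest transcript of all in p53 KO replicate 3 and had ranks 2, 3, 4 and 23 in the other p53 KO libraries, against ranks of 5 to 40 for i4F Ink4a/Arf KO and 20 to 78 for i4F.

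Reg3g, a bactericidal protein in the gut, measured 977, 2932, 9371, 9797 and 161 FPKM in the libraries labelled p53 KO. Its values were 29.5, 631, 2025, 220 and 537 FPKM in i4F Ink4a/Arf KO, and 108, 34.7, 29.0, 193 and 407 FPKM in i4F. Again 4 of 5 p53 KO and 3 of 5 i4F Ink4a/Arf KO libraries lay above every i4F library, and the lowest p53 KO library was replicate 5. For p53 KO this too was less than the full separation from i4F found for 74.3% of tested genes.

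Reg3a measured 828, 2806, 11393, 14344 and 109 FPKM in the libraries labelled p53 KO. Its values were 119, 4345, 9084, 1862 and 376 FPKM in i4F Ink4a/Arf KO, and 890, 175, 165, 517 and 975 FPKM in i4F. Both p53 KO and i4F Ink4a/Arf KO had 3 libraries above every i4F library and 1 below every one. Reg3d ranged from 10.6 to 3582 FPKM in the libraries labelled p53 KO, against 558 to 2283 FPKM for i4F Ink4a/Arf KO and 638 to 1032 FPKM in i4F. It spanned 338-fold in the libraries labelled p53 KO, the widest of the 6 there, and 1.62-fold in i4F, the steadiest of the Reg3 genes. No member was at 0 in any pancreas library, and all 6 passed the filter of at least 1 FPKM in at least 5 of 15 libraries.

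**Figure D1:**
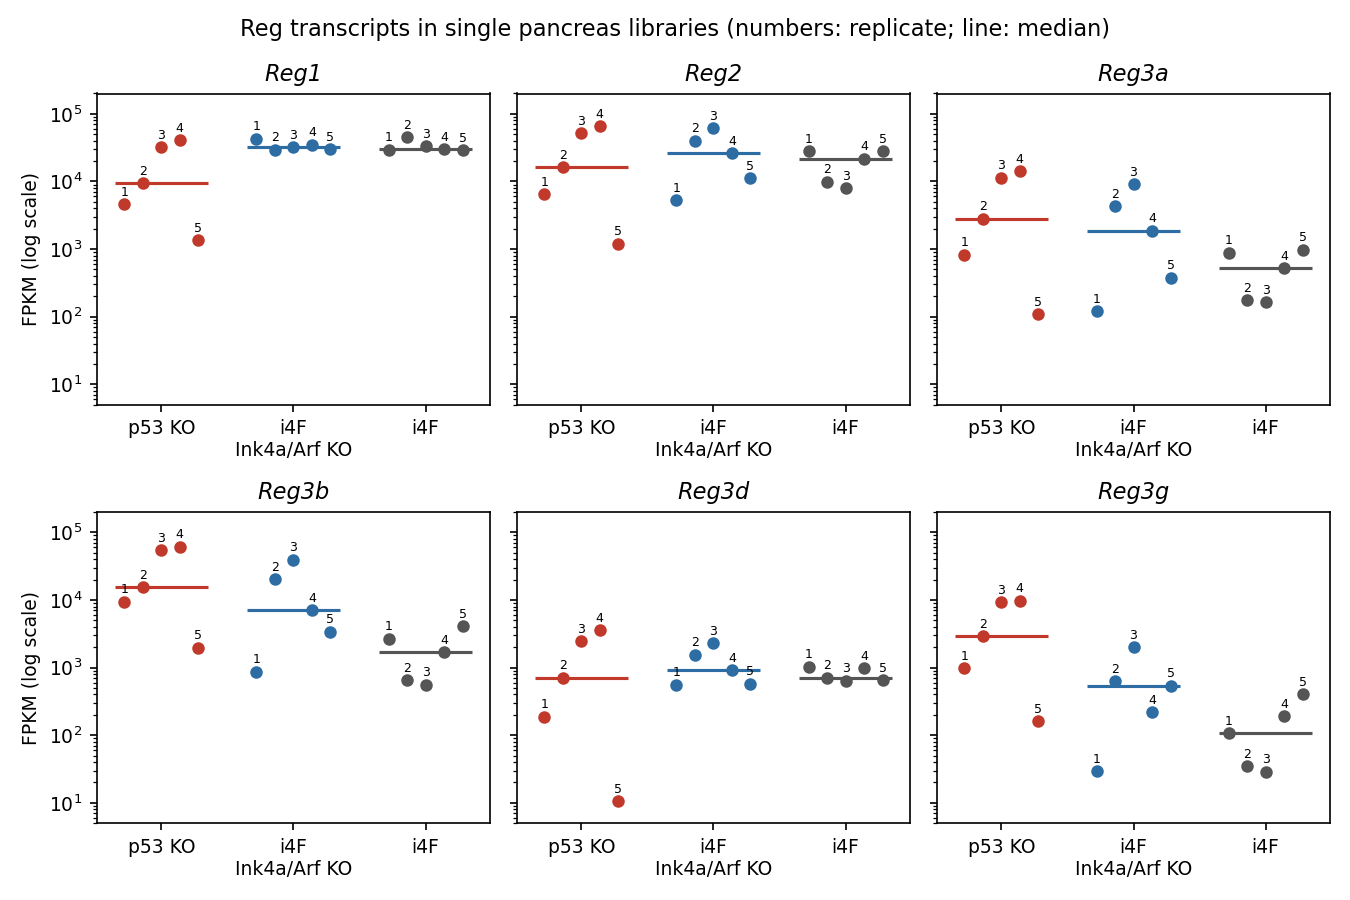
FPKM of each Reg gene in the 15 pancreas libraries on a log scale, with p53 KO, i4F Ink4a/Arf KO and i4F from left to right; points are libraries with their replicate number and lines are medians. Reg1 spreads down to 1343 FPKM in p53 KO and stays between 29180 and 45682 FPKM in i4F Ink4a/Arf KO and i4F, while 4 of 5 p53 KO values of Reg3b and Reg3g lie above every i4F value. Of all tested genes, 74.3% do not overlap between p53 KO and i4F, whereas every Reg gene does.

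By median level, the order in the libraries labelled p53 KO was Reg2 (16335 FPKM), Reg3b (15637 FPKM), Reg1 (9372 FPKM), Reg3g (2932 FPKM), Reg3a (2806 FPKM) and Reg3d (713 FPKM). In i4F the order was Reg1 (29983 FPKM), Reg2 (21810 FPKM), Reg3b (1709 FPKM), Reg3d (706 FPKM), Reg3a (517 FPKM) and Reg3g (108 FPKM). Neighbours in these orders overlapped in range, except that in i4F Reg1 lay above Reg2, and Reg2 above Reg3b, in every library. The highest member was Reg3b in 3 and Reg2 in 2 of the libraries labelled p53 KO, against Reg1 in 3 and Reg2 in 2 of i4F Ink4a/Arf KO and Reg1 in 5 of 5 i4F libraries.

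For the libraries labelled p53 KO against i4F, limma on log2(FPKM + 1), with Benjamini-Hochberg adjustment over all 10781 genes tested, called 3 of the 6 members. Reg3b was higher by 3.42 on the log2 scale (SE 1.01, adjusted p = 0.00395) and Reg3g by 4.43 (SE 1.14, adjusted p = 0.00137). Reg1, the main acinar member, was lower, at -1.80 on the same scale (SE 0.71, adjusted p = 0.0234). In this comparison 93.4% of all tested genes were called, 91.2% as higher and 2.25% as lower, and the median log2 fold change over all genes was 1.58, so 2 of 6 members called higher is below the background share and 1 of 6 lower is above it. Reg3a (2.33, SE 1.24, adjusted p = 0.0833), Reg2 (-0.33, SE 0.93, adjusted p = 0.731) and Reg3d (-0.88, SE 1.07, adjusted p = 0.430) did not pass. In bulk tissue fewer cells of a type and less RNA per cell cannot be told apart.

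Median-of-ratios scaling, which brings the typical gene of all 15 libraries to 1 level and is called scaling below, brought the median change of all genes to 0.20. The gain of Reg3b then became 1.64 (adjusted p = 0.223) and that of Reg3g 2.66 (adjusted p = 0.0827), neither past the threshold. The loss of Reg1 became -3.58 (adjusted p = 0.00318), and 1 of 6 members was called, against 69% of all genes. Scaled values of Reg2 (-2.11, adjusted p = 0.104), Reg3a (0.56, adjusted p = 0.743) and Reg3d (-2.61, adjusted p = 0.0783) did not pass. Reg1 was not called without p53 KO replicate 1 (adjusted p = 0.0661) or replicate 5 (adjusted p = 0.0594), without a filter on low values (adjusted p = 0.0826) or with quantile normalization (-0.93, adjusted p = 0.271). Reg3a was called without p53 KO replicate 5 (log2 fold change 3.39, adjusted p = 0.00745) and with array weights (3.23, adjusted p = 0.00425).

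**Figure D2:**
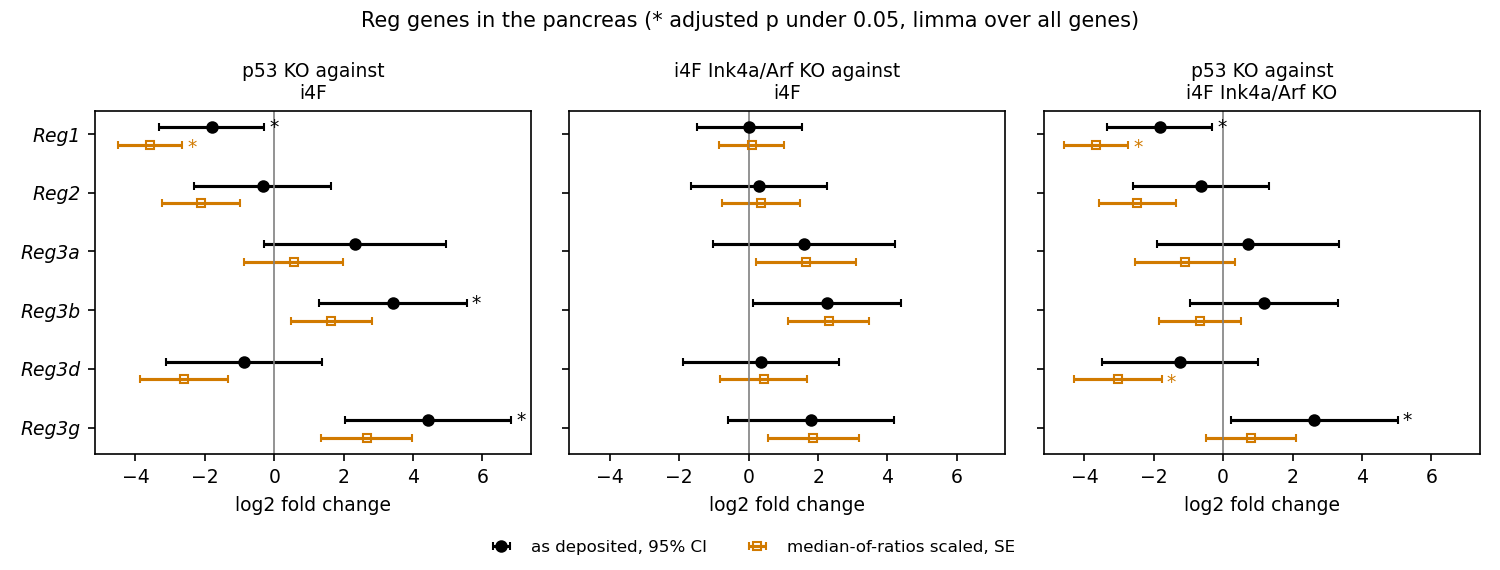
Log2 fold change of each Reg gene in the 3 pancreas comparisons, the first-named genotype over the second; black circles are values as deposited with 95% confidence intervals, orange squares are values after scaling with their SE, and asterisks mark an adjusted p under 0.05 (limma). Against i4F, Reg3b (3.42) and Reg3g (4.43) in p53 KO carry an asterisk as deposited and none after scaling, whereas Reg1 (-1.80 and -3.58) carries one in both.

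Ratios between members of 1 library do not depend on that scaling, and they are given as a description, without a test. Against i4F, p53 KO had log2 fold changes of -1.80 for Reg1 and -0.33 for Reg2, where the median over all genes was 1.58. A ratio to Reg1 or Reg2 would therefore rise even for a gene that did not change. Its separation is not read as a rise particular to the Reg3 genes. Reg3b per Reg1 was 1.47 to 2.06 in the libraries labelled p53 KO (median 1.67), against 0.0202 to 1.24 for i4F Ink4a/Arf KO (median 0.202) and 0.0144 to 0.141 in i4F (median 0.057). The p53 KO libraries thus held this ratio within 1.40-fold while Reg3b itself spanned 31.2-fold, and none of them overlapped either other genotype. Reg3b per Reg2 was 0.939 to 1.64 in p53 KO, against 0.163 to 0.646 for i4F Ink4a/Arf KO and 0.0664 to 0.147 in i4F, with no overlap between any of the 3 genotypes. Reg3g per Reg2 was 0.134 to 0.183 in p53 KO, against 0.00554 to 0.0478 for i4F Ink4a/Arf KO and 0.00351 to 0.0146 in i4F. Of the 15 ratios among the 6 members, which share members and are not independent, 11 did not overlap between p53 KO and i4F, 1 between i4F Ink4a/Arf KO and i4F, and 5 between p53 KO and i4F Ink4a/Arf KO. The FPKM of single genes, a different measure from which nothing is read about the ratios, did not overlap for 74.3%, 0.223% and 86.8% of the 10781 tested genes in those comparisons.

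As a share of the summed FPKM of the family, Reg3b made up 42.0%, 32.7%, 33.8%, 31.4% and 41.1% in replicates 1 to 5 of p53 KO. It made up 1.74%, 21.2%, 27.1%, 9.90% and 7.28% in i4F Ink4a/Arf KO, and 4.29%, 1.15%, 1.31%, 3.10% and 6.49% in i4F. Reg1 made up 19.6% to 28.01% in p53 KO, against 21.9% to 86.1% for i4F Ink4a/Arf KO and 46.1% to 79.9% in i4F. A share depends on Reg1 and Reg2 as well, so a higher Reg3b share is not read as a rise of Reg3b alone. The Reg3b share of every p53 KO library lay above all others, and that of i4F Ink4a/Arf KO overlapped i4F in replicate 1 only. That replicate had a Reg1 share above every i4F library and a Reg2 share, 10.7%, below every one. Among the p53 KO libraries Reg3a and Reg3d varied, with Reg3a at 2.27% to 7.33% and Reg3d at 0.221% to 1.83%, both lowest in replicate 5.

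The whole family took 3.85%, 7.94%, 20.6%, 23.0% and 0.916% of all FPKM in the p53 KO libraries. It took 6.73%, 12.2%, 17.2%, 9.15% and 5.97% in i4F Ink4a/Arf KO, and 8.68%, 7.78%, 5.84%, 7.46% and 10.3% in i4F. The totals of p53 KO lay on both sides of the other genotypes.

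**Figure D3:**
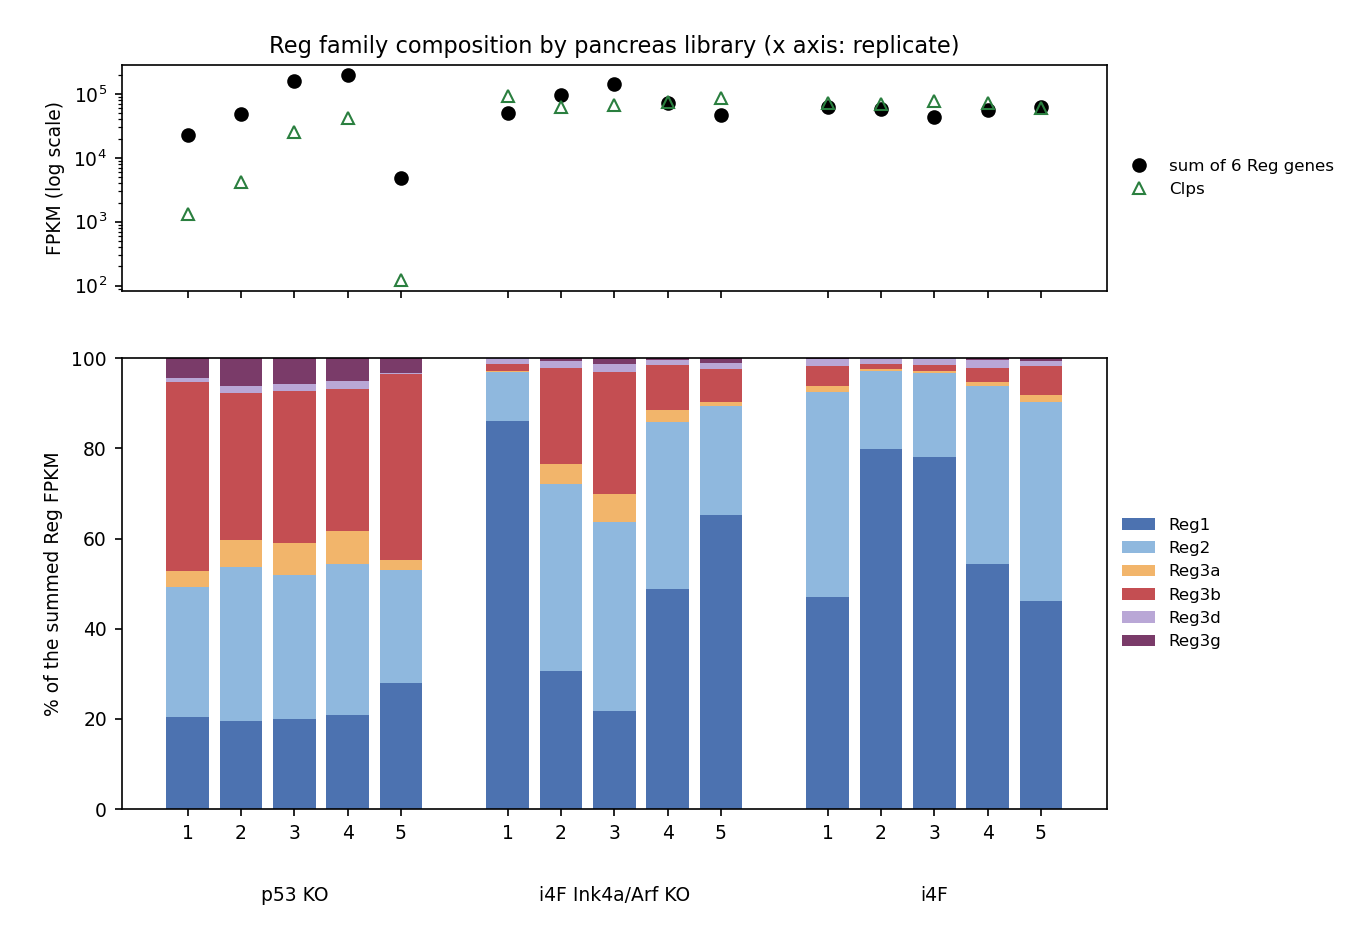
Above, the summed FPKM of the 6 Reg genes (filled circles) and FPKM of the acinar gene Clps (open triangles) in each pancreas library on a log scale; below, the share of each Reg gene in that sum, in percent, with replicates along the x axis and p53 KO, i4F Ink4a/Arf KO and i4F from left to right. Reg3b takes 31.4% to 42.0% in p53 KO and at most 6.49% in i4F, although the p53 KO sums span 40.8-fold.

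Genes of the acinar cells, the main source of Reg1 in healthy pancreas, moved in the same comparison. Clps, the colipase that assists pancreatic lipase, measured 1298, 4230, 25046, 41700 and 121 FPKM in the p53 KO libraries, against 61634 to 91327 FPKM for i4F Ink4a/Arf KO and 60495 to 78363 FPKM in i4F. All 5 p53 KO values lay below every other library (log2 fold change against i4F -4.24, SE 1.10, adjusted p = 0.00142), and their order was the order of Reg1, Reg2, Reg3a, Reg3b, Reg3d and Reg3g in the same libraries. The 31 acinar secretory genes in the table summed to 5662 to 420374 FPKM in p53 KO, against 525520 to 579105 FPKM for i4F Ink4a/Arf KO and 382572 to 546682 FPKM in i4F. Of the 29 tested, 19 fell and 2 were called higher in p53 KO against i4F (median -2.64 on the log2 scale), where 2.25% of all genes were called lower and 91.2% higher. Both calls of a rise, Cela2a and Pnlip, had values of 0 in i4F libraries, and no change was read from them. Cel, the bile salt-stimulated lipase, Ctrc, chymotrypsin C, and Ctrl, a chymotrypsin-like protease, fell, with log2 fold changes of -4.06, -3.80 and -5.15.

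Reg1 fell less than most of these genes: 20 of the 29 had a lower log2 fold change than Reg1, and 27 of 29 had a lower one than Reg3b. Per Clps, Reg1 was 0.982 to 11.1 in p53 KO, against 0.348 to 0.479 for i4F Ink4a/Arf KO and 0.407 to 0.659 in i4F. Reg3b per Clps was 1.48 to 16.3 in p53 KO, against 0.00949 to 0.589 for i4F Ink4a/Arf KO and 0.00716 to 0.0679 in i4F. All p53 KO libraries thus had more of either member per colipase transcript than any other library. Clps itself had a log2 fold change of -4.24 against i4F, where the median over all genes was 1.58. A ratio to Clps would therefore rise even for a gene that did not change, and its separation is not read as a trait of Reg genes. The family made up 30.2% to 45.8% of the sum of Reg and acinar secretory FPKM in p53 KO, against 7.43% to 21.5% for i4F Ink4a/Arf KO and 7.52% to 14.2% in i4F. With only the 22 acinar genes above 0 in every pancreas library those shares were 48.4% to 78.9% in p53 KO, against 11.4% to 31.97% for i4F Ink4a/Arf KO and 11.4% to 16.7% for i4F.

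**Figure D4:**
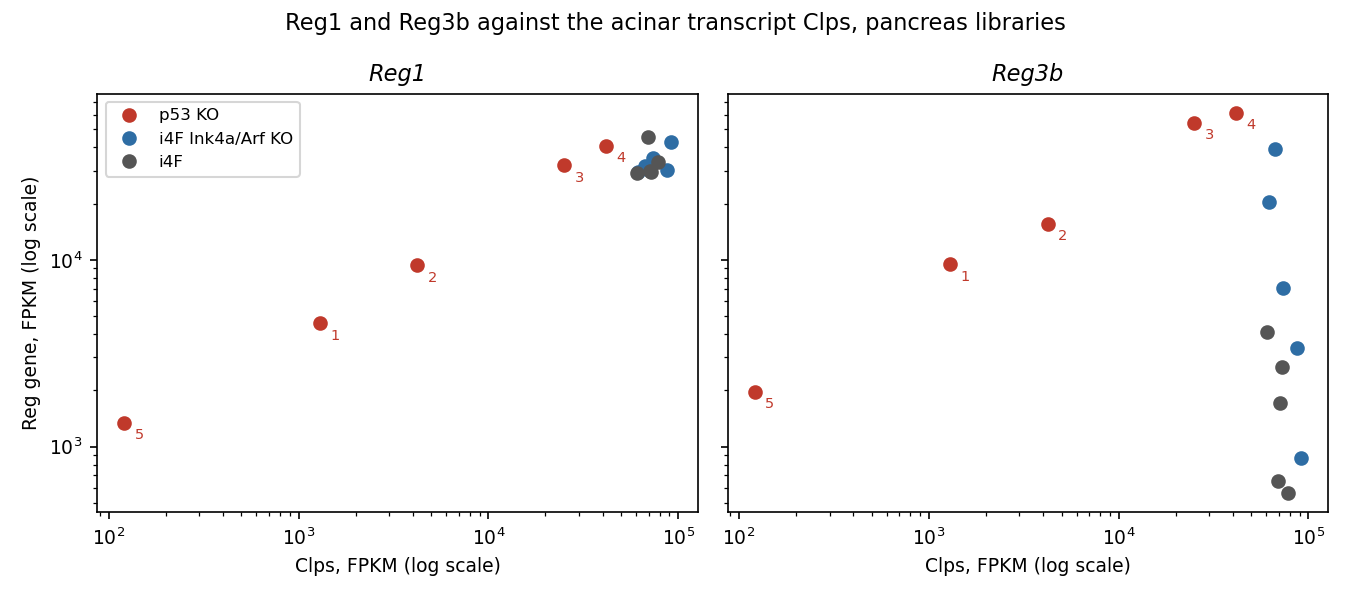
Reg1 (left) and Reg3b (right) against Clps in each of 15 pancreas libraries, all in FPKM on log scales, with p53 KO replicates numbered. In p53 KO both Reg genes are lowest in replicate 5, where Clps is 121 FPKM, and in the other genotypes Reg3b ranges from 561 to 39443 FPKM while Clps stays between 60495 and 91327 FPKM.

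Acinar transcription factors were split. Of 9 tested, 3 rose and 3 fell in p53 KO against i4F (median log2 fold change 0.16, against 1.58 over all genes). Over all genes 91.2% were called higher and 2.25% lower. Scaled, 1 rose and 7 fell, where 69% of all genes were called in either direction. Rbpjl, the acinar partner of Ptf1a, ranged from 1.84 to 28.4 FPKM in p53 KO and from 40.7 to 70.2 FPKM in i4F (n = 5 each; log2 fold change -2.16, adjusted p = 0.000242 by limma). Ptf1a, the bHLH factor of acinar identity, named here after its values were seen, measured 12.8 ± 7.94 FPKM in p53 KO and 26.2 ± 7.29 FPKM in i4F (log2 fold change -1.21, adjusted p = 0.00577 by limma). Rbpj, the effector of Notch signalling, was higher by 2.31 and Gata4 and Gata6, factors of pancreas identity, by 1.03 and 1.35; scaled, Gata4 was lower (-0.59, adjusted p = 0.00396) and Gata6 did not pass (-0.12, adjusted p = 0.251).

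Of the ligands, receptors and STAT3 targets listed as inducers of Reg3 genes, 15 of 18 tested rose and none fell in p53 KO against i4F (median log2 fold change 2.11, against 1.58 over all genes). That share is below the 91.2% of all genes called higher. Genes near 0 in the other genotypes passed the filter only through p53 KO, so their rise was fixed in part by the filter. Scaled, 11 of 17 rose and 4 fell, with a median of 0.58. Il6, the inflammatory cytokine, measured 3.57 ± 1.77 FPKM in p53 KO (SD, n = 5) and was at or below 0.0406 FPKM in every i4F library. Stat3 measured 34.8 ± 11.8 FPKM in p53 KO and 5.66 ± 3.09 FPKM in i4F, a log2 fold change of 2.47 (adjusted p = 1.63e-06 by limma; 0.84 scaled, adjusted p = 0.000272). Socs3, the feedback inhibitor that STAT3 induces, measured 32.9 ± 10.4 FPKM in p53 KO and 1.43 ± 0.508 FPKM in i4F, a log2 fold change of 3.77 (adjusted p = 2.61e-08 by limma; 2.26 scaled). Bcl3, a partner of NF-kB subunits and also a STAT3 target, was higher by 3.83 (2.48 scaled). Across replicates 1 to 5 of p53 KO, Stat3 measured 44.0, 38.4, 27.1, 18.4 and 46.1 FPKM. Socs3 measured 38.5, 33.6, 26.9, 19.2 and 46.3 FPKM in the same libraries. Both orders were the reverse of the order of Reg3b there, and the relation was not tested. In i4F Ink4a/Arf KO against i4F none of the 18 was called, where 0% of all 10781 tested genes were, so no likeness is read from that count. Socs3 measured 2.33 ± 1.40 FPKM in i4F Ink4a/Arf KO, 0.38 above i4F on the log2 scale.

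Extl3, the exostosin-like protein reported as a Reg receptor, measured 15.7 ± 2.27 FPKM in p53 KO and 17.2 ± 3.96 FPKM in i4F (SD, n = 5 each; log2 fold change -0.11, adjusted p = 0.577 by limma). Against the other genes it was lower, as its scaled value was -1.74 (adjusted p = 9.47e-07). Egfr, the epidermal growth factor receptor, was higher by 2.14 (0.75 scaled), and Fn1, fibronectin, by 4.52 (2.92 scaled).

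Markers of other cell types and of injury moved in the p53 KO libraries as well, and their part in the Reg values was not tested. Their counts are to be read against the 91.2% of all genes called higher in this comparison and, scaled, the 69% called in either direction. The filter asks for 1 FPKM in 5 libraries, so a gene below that in every other library passed only through the 5 p53 KO libraries. The rise of such a gene was fixed in part by the filter, also within the 91.2%. Nothing is read from the counts of rises below. Of 18 acute phase and injury genes tested, 15 rose and none fell (median log2 fold change 4.19; 15 rose and 2 fell when scaled), among them Timp1, an inhibitor of metalloproteases, by 7.48, and Anxa2, an annexin, by 5.75. Of 14 duct genes, 12 rose and 1, the trefoil factor Tff2, fell (median 3.05; scaled, 9 rose and 3 fell, median 1.40), with Krt19, a keratin of duct cells, at 689 ± 259 FPKM in p53 KO and 20.4 ± 13.9 FPKM in i4F (SD, n = 5 each). The acute phase list summed to 3661 to 10040 FPKM in p53 KO, against 666 to 2024 FPKM for i4F Ink4a/Arf KO and 970 to 2207 FPKM for i4F. The sums of the duct list overlapped, at 4423 to 6999 FPKM in p53 KO, against 4769 to 6916 FPKM for i4F Ink4a/Arf KO and 4941 to 6209 FPKM for i4F. All 7 immune genes tested rose (median 4.28, 2.71 scaled, with 4 of 7 called), among them the macrophage gene Cd68 by 4.28; the 12 immune genes in the table summed to 312 to 6142 FPKM in p53 KO, against 39.2 to 440 FPKM for i4F Ink4a/Arf KO and 19.1 to 514 FPKM for i4F. Islet genes had 1 higher and 1 lower of 16 tested; scaled, 8 of 16 were lower. Of 3 kidney tubule genes tested in the pancreas 1 was called higher, and scaled none was higher and 1 of 2 was lower.

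Intestinal epithelium also makes Reg3 proteins. The 14 intestinal genes in the pancreas table summed to 99.95 to 439 FPKM in p53 KO, against 20.7 to 30.9 FPKM for i4F Ink4a/Arf KO and 21.6 to 57.3 FPKM in i4F, and 4 of 4 tested rose, where 91.2% of all genes did. Scaled, 2 of 3 rose and 1 fell. Those called were Krt20, Vil1 and Anpep, which other epithelia also express, and Lyz1, a near copy of the macrophage lysozyme gene Lyz2 whose reads may be exchanged with it; scaled, Anpep was lower (-0.94). The other 10 genes of the list did not pass the filter on low values. A gene near 0 in the other genotypes could pass it only through p53 KO, so nothing is read from the count of 4 of 4. Over the 15 pancreas libraries Fabp1, Fabp2, Alpi, Sis, Cdx1 and Defa24 reached at most 0.228 FPKM and Cdx2 0.49998 FPKM, and Cdh17 reached 1.96 FPKM, Olfm4 9.55 FPKM and Lgals4 39.5 FPKM.

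For i4F Ink4a/Arf KO against i4F, 0 of 6 members were called, as were 0% of the 10781 genes, of which 36 had a p under 0.05 before adjustment (limma). Reg3b showed a log2 fold change of 2.25 (95% confidence interval 0.12 to 4.38, adjusted p = 1 by limma, p before adjustment 0.0397), Reg3g 1.79 (interval -0.60 to 4.19) and Reg3a 1.60 (interval -1.02 to 4.22). Reg1 showed 0.02 (interval -1.48 to 1.53), and acinar genes did not pass either (median of 29, -0.02). The intervals of the Reg3 genes are wide enough to hold changes of several fold, so likeness of the genotypes is not shown. When libraries were weighted by their fit (array weights), Reg3a, Reg3b and Reg3g were called, with log2 fold changes of 3.70, 4.20 and 3.93 and adjusted p of 0.0233, 0.00497 and 0.0165 by limma. The share of all genes called with array weights was not worked out, so these calls are not read as a trait of Reg genes.

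For p53 KO against i4F Ink4a/Arf KO, 2 of 6 members were called, against 93.7% of all genes (91.7% higher, 1.97% lower; 71% in either direction when scaled). Reg1 was lower (-1.83, SE 0.71, adjusted p = 0.0219 by limma; -3.67 scaled) and Reg3g was higher (2.63, SE 1.14, adjusted p = 0.0357), although Reg3g was not called after scaling (0.80, adjusted p = 0.594). Reg3b (1.17, adjusted p = 0.271) and Reg3a (0.73, adjusted p = 0.574) did not pass, and both had the other sign after scaling (-0.67 and -1.10). Reg2 (-0.63, adjusted p = 0.515) and Reg3d (-1.25, adjusted p = 0.265) did not pass as deposited, whereas scaled Reg3d was called lower (-3.04, adjusted p = 0.0426) and Reg2 was not (-2.47, adjusted p = 0.0592). With quantile normalization neither Reg1 (-0.81, adjusted p = 0.336) nor Reg3g (2.24, adjusted p = 0.165) was called and Reg3b was (2.203, adjusted p = 0.0374). With array weights Reg3g was not called (1.83, adjusted p = 0.0720) and Reg3d was (-1.59, adjusted p = 0.0231). The Reg3g call was lost without i4F Ink4a/Arf KO replicate 1 (adjusted p = 0.123) or 4 (0.0647) and without p53 KO replicate 2 (0.0621), 3 (0.0974) or 4 (0.102). That of Reg1 was lost without p53 KO replicate 1 (0.0623) or 5 (0.0545). The 3 comparisons share their libraries in pairs and are not independent.

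Among the 10 pancreas libraries of i4F Ink4a/Arf KO and i4F, where acinar genes were steady, 5 of the members varied together and Reg1 did not. Pearson's r of log2(FPKM + 1), a description over 10 libraries of 2 genotypes, was 0.67 to 0.97 among Reg2, Reg3a, Reg3b, Reg3d and Reg3g, with the highest value between Reg3a and Reg3b, which lie on either side of Reg3d in the block. Reg1 had r of -0.66 to -0.37 with the other 5. Of 7680 genes compared, those most like Reg1 were Try10 (r = 0.939) and Prss3 (0.844), both trypsinogens, followed by Lcat (0.770), Ttr (0.726) and Bcdin3d (0.669). Those most like Reg3b were Reg3a (0.970), Map1lc3a (0.940), an autophagy protein, Reg3g (0.920), Clu (0.903), the chaperone clusterin, and Mpst (0.902). Reg2 was most like Reg3a (0.955), Uqcrq (0.931), Tmc5 (0.902), Gpx4 (0.894) and Muc1 (0.886), a mucin of duct and acinar surfaces. Reg3d was most like Npdc1 (0.912), Serpina10 (0.898), Tmc5 (0.894), Dmbt1 (0.892) and Muc1 (0.890), and Dmbt1, a secreted mucosal scavenger protein, was also among the 5 most like Reg3a (0.919). Reg3g was most like Reg3b, Gpx4 (0.908), Map1lc3a (0.891), Polr2i (0.886) and Immp2l (0.869).

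In the kidney every member was far below its pancreas level. The highest kidney values were 124 FPKM for Reg1, 88.7 for Reg2, 55.7 for Reg3b, 9.76 for Reg3a, 9.74 for Reg3g and 2.86 for Reg3d. The lowest pancreas values were 1343 FPKM for Reg1, 1201 for Reg2, 561 for Reg3b, 109 for Reg3a, 29.0 for Reg3g and 10.6 for Reg3d, so no member overlapped between the tissues. The tissues were deposited in separate tables and are set side by side without a test.

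Reg1 measured 9.49, 88.2, 124, 81.2 and 32.3 FPKM in replicates 1 to 5 of i4F p53 KO kidneys. It measured 0.259, 0.561, 0.789, 0.192 and 20.3 FPKM in i4F Ink4a/Arf KO kidneys, and 8.84, 10.01, 14.0, 7.03 and 79.1 FPKM in i4F kidneys. The 4 i4F Ink4a/Arf KO kidneys other than replicate 5 lay below every kidney of the other genotypes. Reg2 measured 9.81, 88.7, 29.8, 19.7 and 52.3 FPKM in i4F p53 KO kidneys. It measured 0.259, 1.57, 0.914, 0.686 and 30.6 FPKM in i4F Ink4a/Arf KO kidneys, and 9.95, 11.7, 10.9, 8.67 and 63.8 FPKM in i4F kidneys. The same 4 i4F Ink4a/Arf KO kidneys were lowest in Reg2.

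Reg3b measured 6.93, 7.79, 1.94, 1.66 and 55.7 FPKM in i4F p53 KO kidneys. It measured 0, 0.859, 0.437, 0.184 and 48.6 FPKM in i4F Ink4a/Arf KO kidneys, and 6.40, 5.58, 9.67, 5.13 and 5.38 FPKM in i4F kidneys. The 2 kidneys with 48.6 and 55.7 FPKM of Reg3b were thus of different genotypes. Reg3g ranged from 0.131 to 9.74 FPKM in i4F p53 KO kidneys, from 0 to 4.84 FPKM in i4F Ink4a/Arf KO kidneys and from 0.650 to 3.21 FPKM in i4F kidneys, and the 3 genotypes overlapped.

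No member was called in the kidney. For i4F p53 KO against i4F 0 of 6 were called, against 0.257% of 12431 genes (32 genes called by limma, 1641 with p under 0.05 before adjustment). For i4F Ink4a/Arf KO against i4F 0 of 6 were called, against 0% of genes (398 with p under 0.05 before adjustment), and Reg1 was at -2.70 (adjusted p = 0.997 by limma). For i4F p53 KO against i4F Ink4a/Arf KO 0 of 6 were called, against 0.265% of genes (33 called, 2232 with p under 0.05 before adjustment). In that comparison Reg1 differed by 4.35 (SE 0.88, adjusted p = 0.0541 by limma), Reg2 by 3.32 (SE 0.83, adjusted p = 0.0962) and Reg3d by 1.25 (SE 0.30, adjusted p = 0.0862). Without i4F Ink4a/Arf KO replicate 5 both Reg1 (5.13, adjusted p = 0.0131) and Reg2 (4.15, adjusted p = 0.0149) were called there, and Reg1 was also called without i4F p53 KO replicate 1 or 2 or without i4F replicate 5.

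Clps, an acinar product, moved with Reg1 in the kidney. It measured 20.0, 220, 197, 191 and 17.5 FPKM in i4F p53 KO kidneys. It measured 0.390, 1.15, 0.820, 0.926 and 7.37 FPKM in i4F Ink4a/Arf KO kidneys, and 17.5, 17.3, 13.8, 13.4 and 216 FPKM in i4F kidneys. The 4 kidneys highest in Clps were the 4 highest in Reg1, and the 4 lowest in Clps were the 4 lowest in Reg1. Clps itself was called higher in i4F p53 KO against i4F Ink4a/Arf KO (5.03, SE 0.89, adjusted p = 0.0407 by limma). Of 24 tested acinar secretory genes 4 were called higher there, with a median of 3.91 (8 of 24 after scaling). As deposited, 0.265% of all genes were called in either direction in that comparison. The share after scaling was not worked out for the kidney, so nothing is read from the count of 8. Whether pancreatic RNA contributes to the kidney values was not tested.

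The make-up of the family in those kidneys was set against each pancreas library, as the sum of the absolute differences of the 6 shares in percentage points. The i4F p53 KO kidneys of replicates 2, 3 and 4 were closest to i4F pancreas libraries, at 2.42, 1.51 and 4.17 percentage points, and the i4F kidney of replicate 5 was closest to an i4F pancreas library, at 5.39. The i4F p53 KO kidney of replicate 5 was closest to a p53 KO pancreas library (2.25 percentage points), and so was the i4F Ink4a/Arf KO kidney of replicate 5 (5.61), the other kidney rich in Reg3b. The remaining 9 kidneys were at least 14.3 percentage points from any pancreas library.

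**Figure D5:**
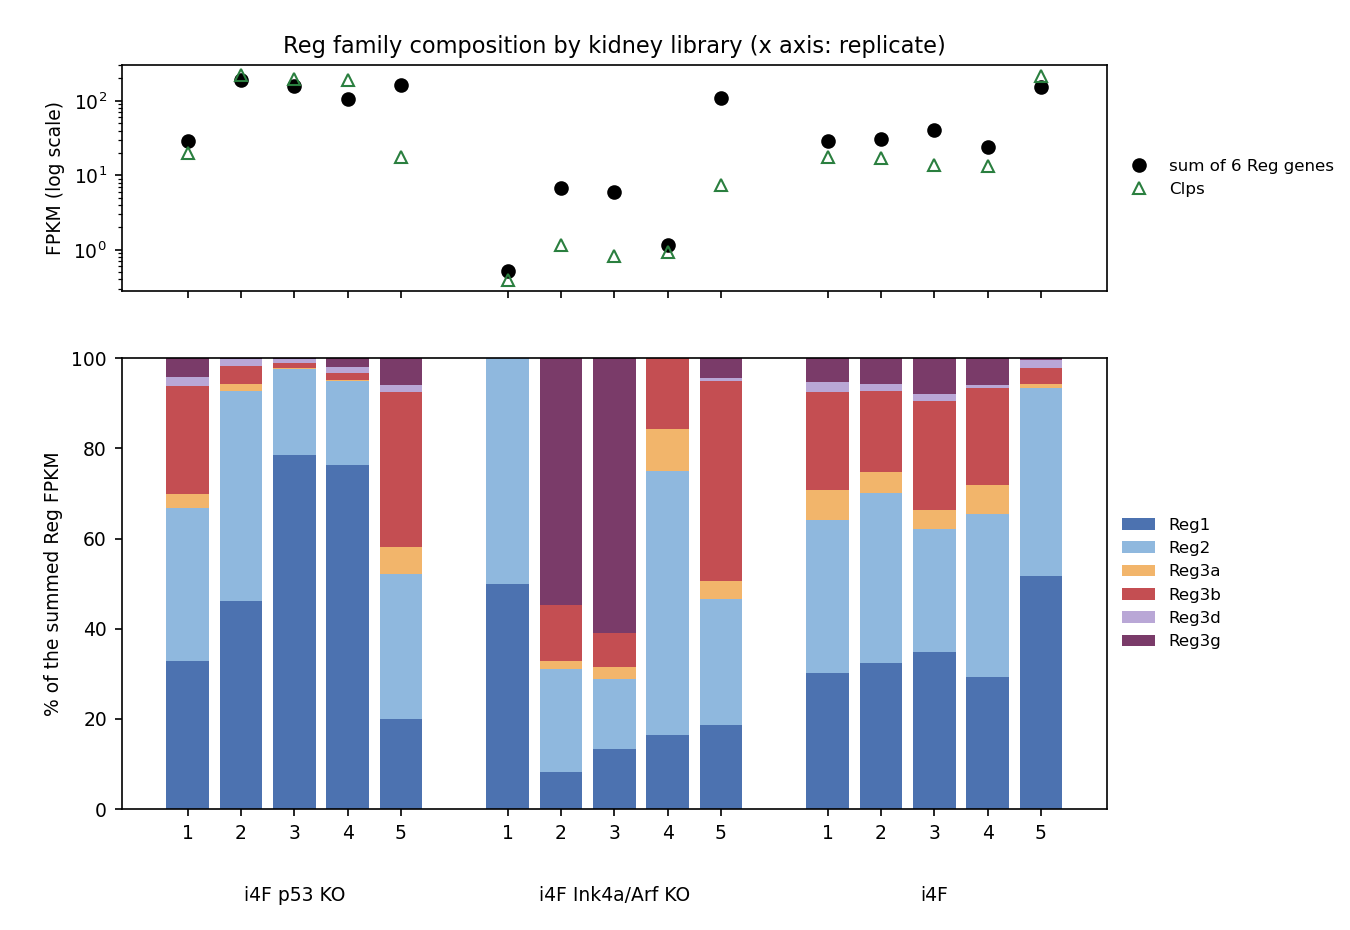
The same plot for the 15 kidney libraries: above, summed Reg FPKM (filled circles) and Clps (open triangles) on a log scale; below, the share of each Reg gene in percent, with i4F p53 KO, i4F Ink4a/Arf KO and i4F from left to right. The 4 kidneys with Clps of 191 FPKM or more are dominated by Reg1 and Reg2, with Reg3b at 1.23% to 4.08%, whereas Reg3b takes 34.4% and 44.5% in replicate 5 of i4F p53 KO and of i4F Ink4a/Arf KO.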

How the data were processed

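Poly(A) RNA of 30 mouse libraries was measured with a stranded kit, per the labels' protocols. The authors deposited 1 table of FPKM values per tissue. Cufflinks 2.2.1, TopHat2 2.0.10, SAMtools 0.1.19, Bowtie 1.0.0, FastQC and the build mm10 appear in the submitters' processing notes, without their roles; how multi-mapped reads were divided is not given in the sources used here. FPKM is scaled within a library, so it cannot show a change of total RNA, and read counts were not used here.

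Values were taken as log2(FPKM + 1), a scale that understates changes of low genes, for genes that reached 1 FPKM in 5 or more of the 15 libraries of a tissue. Each tissue was fitted on all 3 genotypes with limma 3.58.1 in R 4.3.3 (trend), with Benjamini-Hochberg adjustment over all tested genes and an adjusted p under 0.05 as the threshold. The same steps were tested on simulated data with 200 changed genes. That setting differs from the pancreas p53 KO comparisons, where 93.4% (against i4F) and 93.7% (against i4F Ink4a/Arf KO) of genes were called. Nothing about those calls is read from it. Summaries used Python 3.11.15, and transcripts were aligned with Biopython 1.88. All columns belonged to a sample (columns without a sample: 0).

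The members and the 10 marker lists were chosen with earlier results of these data known. Besides the 6 members, up to 4 list genes with the smallest p and the 5 genes most like each member were named; Cdkn2a, Ptf1a, Tff2, Xist, Ddx3y, Umod, Slc34a1 and the intestinal genes under the filter were named after their values were seen. Alternatives were another pseudocount, other filters, median-of-ratios and quantile scaling, array weights, fits of 2 groups, a replicate block and leaving out each library.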

Additional observations from a re-analysis of the deposited data

Results flagged for a closer look

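Each member in each group of 5 libraries was examined for 1 library standing far from the other 4, 36 groups in all. The rule was a gap to the nearest library above 0.71 of the whole range. It was applied to FPKM and not to logs, so high values are flagged more readily than low ones. Members measured in the same library are not independent, and no rate of flags by chance is given. In 13 groups the highest library stood apart, and in none the lowest. In the pancreas this was Reg1 in i4F replicate 2, at 45682 FPKM, with the other 4 at 29180 to 33602 FPKM. The other 12 were kidney values.

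In the i4F p53 KO kidney of replicate 5, Reg3a was 9.76 FPKM (others 0.382 to 2.75), Reg3b 55.7 FPKM (others 1.66 to 7.79) and Reg3g 9.74 FPKM (others 0.131 to 1.98). In the i4F Ink4a/Arf KO kidney of replicate 5, Reg1 was 20.3 FPKM (others 0.192 to 0.789), Reg2 30.6 FPKM (others 0.259 to 1.57), Reg3a 4.23 FPKM (others up to 0.168), Reg3b 48.6 FPKM (others up to 0.859) and Reg3d 0.638 FPKM (others at 0). In the i4F kidney of replicate 5, Reg1 was 79.1 FPKM (others 7.03 to 14.0), Reg2 63.8 FPKM (others 8.67 to 11.7) and Reg3d 2.69 FPKM (others 0.169 to 0.649). Reg3b in the i4F kidney of replicate 3 was 9.67 FPKM (others 5.13 to 6.40). Beside these values, Clps was 17.5 FPKM in replicate 5 of i4F p53 KO, 7.37 FPKM in replicate 5 of i4F Ink4a/Arf KO and 216 FPKM in replicate 5 of i4F.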

How the results depend on the processing

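Of 840 repeats of a member's test under another setting, 748 kept direction and side of the threshold, 22 gained and 19 lost a call, and 51 changed sign. The share of all genes called was worked out only as deposited and, in the pancreas, after median-of-ratios scaling. Counts of members called under the other settings have no such share beside them, and nothing about the members is read from them. In the pancreas, 1 member, Reg1, was called for p53 KO against i4F with median-of-ratios scaling (3 as reported), and 3 for i4F Ink4a/Arf KO against i4F with array weights (0 as reported). For p53 KO against i4F Ink4a/Arf KO 0 were called without a filter, 1 with quantile scaling (Reg3b in place of Reg1 and Reg3g) and 1 to 2 when 1 library was left out (2 as reported). For kidney i4F p53 KO against i4F Ink4a/Arf KO (0 as reported) they were 2 with a pseudocount of 0.1, 1 with a filter at 5 FPKM, 1 with quantile scaling, 2 with array weights, 2 with the Xist level as a covariate (added after seeing the data) and 0 to 2 when 1 library was left out. With the replicate block Reg2 alone was called there (log2 fold change 3.32, adjusted p = 0.0394 by limma). Same-numbered libraries deviated together (r over 0.1) in 0 to 3 of 5 pairs. In 0 to 3 of 5 pairs a library was most like its own number. Both counts were 3 of 5 for kidney i4F p53 KO against i4F. Whether a replicate number marks a shared batch is not given in the sources used here and was not tested. The causes were not tested. Log2 fold changes that changed sign follow. In pancreas p53 KO against i4F, Reg2 was 0.52 with quantile scaling, 0.36 with array weights and -0.91 to 0.53 leaving 1 library out, and Reg3d -1.65 to 0.41 leaving 1 out. In i4F Ink4a/Arf KO against i4F, Reg1 was -0.12 (quantile), -0.031 (array weights), -0.069 (Xist) and -0.064 to 0.14 (1 left out), and Reg2 -0.10 (Xist) and -0.089 to 0.79 (1 left out). In p53 KO against i4F Ink4a/Arf KO, Reg2 was 0.32 (quantile) and -1.21 to 0.23 (1 left out), Reg3a -1.10 (median-of-ratios), -0.48 (array weights) and -0.12 to 1.80 (1 left out), Reg3b -0.67 (median-of-ratios) and Reg3d -2.02 to 0.047 (1 left out). In kidney i4F p53 KO against i4F, Reg3a was -0.22 (pseudocount 0.1), -0.0028 (quantile), -0.58 (array weights), -0.089 (Xist) and -0.44 to 0.30 (1 left out), Reg3b -0.86 (array weights), -0.26 (Xist) and -0.59 to 0.51 (1 left out), and Reg3g -0.53 to 0.28 (1 left out). In kidney i4F Ink4a/Arf KO against i4F, Reg3g was -0.82 (pseudocount 0.1), -0.0027 (quantile), -0.20 (Xist) and -0.27 to 0.37 (1 left out). In kidney i4F p53 KO against i4F Ink4a/Arf KO, Reg3a was -0.23 and Reg3b -0.74 (array weights), and Reg3g 0.44 (pseudocount 0.1) and -0.55 to 0.26 (1 left out). Depth behind a single gene is unknown, and kidney values near or below 1 FPKM are the least certain.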
